A study of Mus musculus with 12 samples.

Results

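The genes described here carry fatty acids into cells or switch on the adipocyte programme: Lpl, Cd36, Fabp3, Fabp4, Fabp5, Pparg, Cebpa, Cebpd, Plin2 and Angptl4. These 10 genes were chosen by their log2 signals in all 4 groups of these arrays, so their levels and differences are given as a description and are not tested. Probes were assigned by the RefSeq transcript printed in the scanner files. Of the 10 genes, 9 had such a probe, out of 17016 genes on the array, and 7 were bright enough to enter the fit across 12438 genes. Fabp5 is not analysed here. Messenger RNA was measured on 12 one-colour Agilent arrays, 1 for each culture of mouse embryonic fibroblasts, with 3 cultures in each of 4 groups. The KO line lacks focal adhesion kinase (FAK, encoded by Ptk2), the tyrosine kinase that acts where integrins attach a cell to its matrix, and the rescue line is a single clone, DA2, of FAK rescue cells. A 10-cm dish received 410000 cells (sparse) or 8200000 cells (dense), and cells were harvested after about 24 h, so the groups are rescue sparse, rescue dense, KO sparse and KO dense. Rescue cells alone grew with hygromycin B and non-essential amino acids, so line, clone and medium cannot be told apart. The 3 cultures of a group came from 3 experimental days, called day 1, day 2 and day 3.

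Lipoprotein lipase, the product of Lpl, releases fatty acids from circulating triglyceride, and the angiopoietin-like proteins inhibit it. Freed fatty acids enter through proteins such as CD36, travel in the cytosol on fatty acid binding proteins (FABP) and are stored in droplets coated by perilipins such as PLIN2. In preadipocytes C/EBP factors switch on Pparg, the master regulator of fat cell formation, and Lpl, Cd36, Fabp4, Plin2 and Angptl4 are among the known PPAR target genes.

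Levels are log2 processed signals minus the 75th percentile of the same array, so a probe at 0 sits at that percentile, and levels of different probes are not set against each other. Differences come from a limma fit with 1 mean per group, with the standard error (SE) from that fit. A gene passed when its Benjamini-Hochberg adjusted p over all 12438 genes was under 0.05. Precision is limited by having 3 arrays a group, and 3 against 3 cannot give a permutation p below 0.1. On their linear scale the 75th percentiles ran from 294 to 1594 intensity units, and 23152 to 26183 probes per array were well above background. Scaling to the spiked-in control RNA in place of the 75th percentile moved the median difference of all genes by 3.07 between dense and sparse KO cells and by -1.55 between the lines in sparse cells, so every difference here is relative to the other genes of the array. Of the 2 Ptk2 probes, one was level in all groups (0.31 ± 0.21 SD in rescue sparse and 0.20 ± 0.15 in KO sparse, n = 3 each). The other was at 0.71 ± 0.50 in rescue sparse and -1.37 ± 0.34 in KO sparse. In dense cells this other probe was at -0.68 ± 0.44 in rescue and -1.61 ± 0.27 in KO. Where the 2 probes lie with respect to the deletion is not known here, so they do not check the labels.

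A table of values deposited with the arrays differs from the scanner files on day 3. Each of its 4 day 3 columns correlated best with the scanner array of the other line at the same density (r from 0.972 to 0.984), while its other 8 columns matched their own arrays. In the scanner files every array, day 3 included, correlated more closely with the arrays of its own group (r of 0.982 or more) than with any array of the other line (0.847 or less). All values below come from the scanner files.

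The cells carried fibroblast markers, with gaps. Of 11 fibroblast markers, 9 or 10 were well above background on all arrays of each group, Thy1 was not on any rescue or KO sparse array, and Lum was not on any rescue sparse or KO array. The summed fibroblast level, in multiples of the 75th percentile, was 1100 to 1990 in rescue and 402 to 439 in KO arrays. Mesothelial markers moved with the line: all 6 on the array were well above background in every KO array, Wt1, Upk3b and Lrrn4 in no rescue array, and the summed level was 75.3 to 85.4 in KO and 23.6 to 42.1 in rescue. Their part in the differences between the lines was not tested. Of the fat cell markers, Lep, Retn, Cfd and Plin1 were well above background on no array, Slc2a4 on no rescue array and Cidec on no KO array. The summed level of 8 markers was 0.0421 to 0.0879 in rescue and 0.104 to 0.246 in KO arrays.

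Lpl was far higher in KO cells, about 100-fold on the scale used, while Pparg, Plin2 and, in dense cells, the other 4 members measured were lower. In sparse cells 1 of the 7 members passed with a higher and 2 with a lower level in KO, where 48.8% of all genes passed (23.2% higher and 25.6% lower). The 2 lines did not overlap for 3 members in sparse cells, against 58.9% of all genes. In dense cells 1 passed as higher and 6 as lower, where 61.6% of all genes passed (31.9% higher and 29.7% lower). All 7 had no overlap between the lines there, against 67.1% of all genes. The median difference of the 7 members was -0.74 in sparse and -1.74 in dense cells, beside 0.03 and 0.08 over all genes. The choice of members used these contrasts, so the counts are a description. A difference in bulk RNA between cultures does not tell fewer expressing cells from less RNA per cell.

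**Figure D1:**
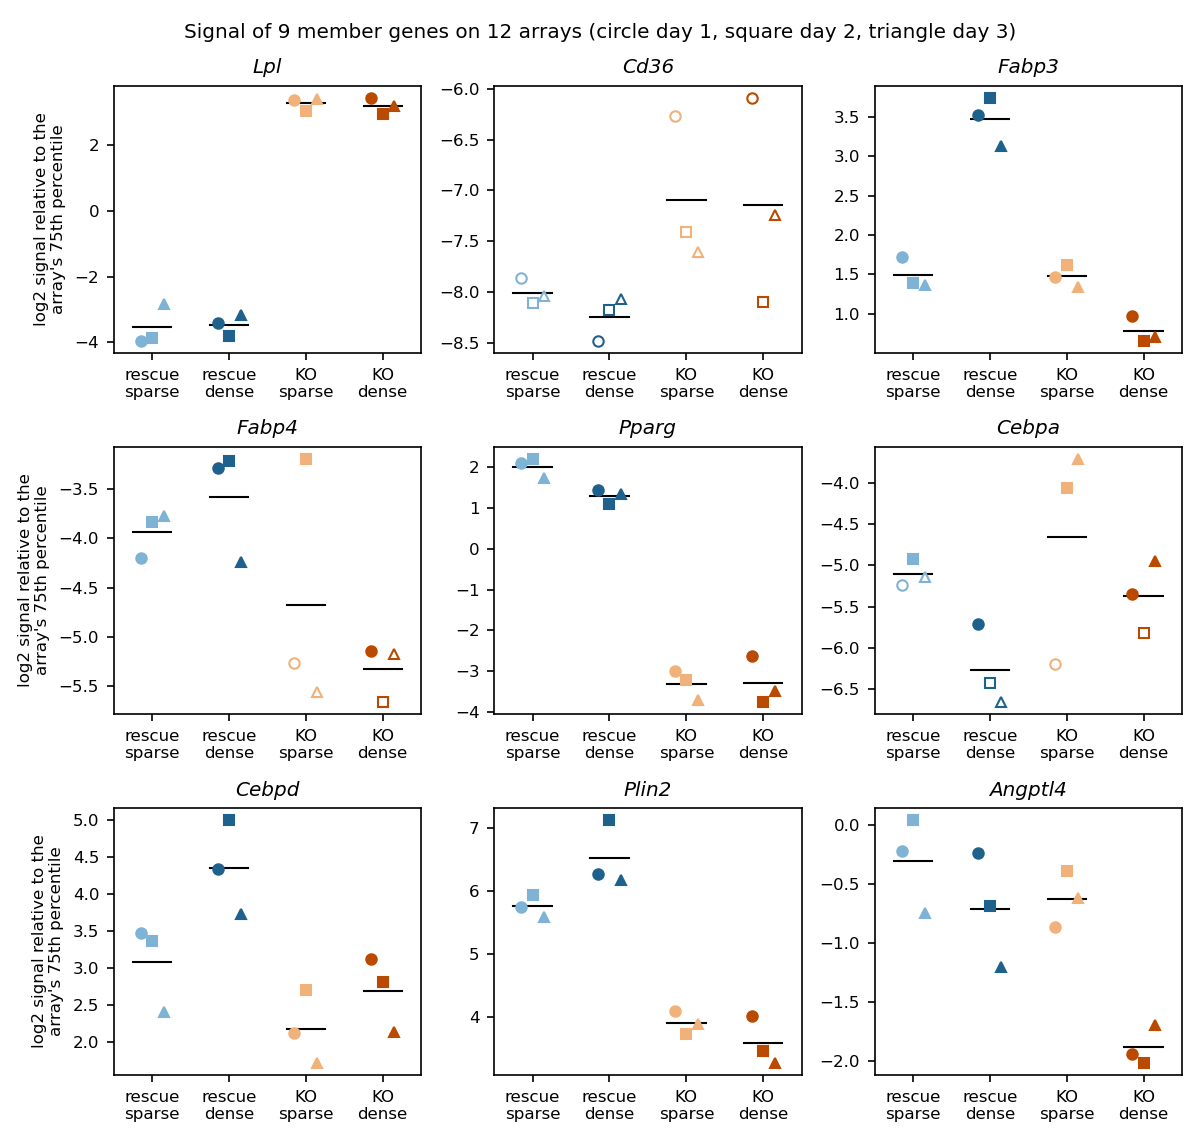
Signal of the brightest probe of 9 member genes on each of 12 arrays, as log2 signal relative to the 75th percentile of the array, by group (n = 3 days: circle day 1, square day 2, triangle day 3); lines are group means and open symbols mark arrays on which the probe was not well above background. Lpl lies near -3.5 in rescue and near 3.2 in KO cells, Pparg runs the other way, and Cd36 is open on all 12 arrays.

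Lpl had the widest gap of the members. Its brighter probe read -3.95, -3.85 and -2.82 in rescue sparse and -3.42, -3.80 and -3.16 in rescue dense cultures on days 1, 2 and 3. In KO cells it read 3.36, 3.03 and 3.41 in sparse and 3.43, 2.94 and 3.19 in dense cultures. Every KO array lay more than 5 log2 units above every rescue array, and within a line the densities overlapped. KO exceeded rescue by 6.81 ± 0.29 (SE) in sparse and 6.65 ± 0.29 in dense cells, which is 112-fold and 100-fold. With normexp background correction the differences were 5.49 and 5.24, and with spike-in scaling 5.26 and 7.45. A second Lpl probe, dimmer in every group, gave 6.65 ± 0.27 at both densities. On the slide of day 2, the one slide that held both lines, the differences were 6.88 and 6.73. Dense minus sparse was 0.08 ± 0.29 in rescue and -0.08 ± 0.29 in KO cells. With spike-in scaling the KO density difference was 2.99, within the shift of all genes. The order of the 4 groups was therefore KO sparse and KO dense, which did not separate, then rescue dense and rescue sparse, which did not separate either.

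Cd36, the fatty acid translocase at the cell surface, did not rise well above background on the 12 arrays. Its probe read between -8.48 and -7.87 in rescue and between -8.10 and -6.09 in KO arrays. As no reading was well above background, no order of the groups and no fold are given.

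Fabp3 encodes the cytosolic fatty acid binding protein best known from heart and muscle. On this scale it was the member whose line difference depended most on density. With spike-in scaling the line difference changed from sparse to dense cells by -0.33 for Fabp3, 3.08 for Pparg and 2.19 for Lpl. Fabp3 read 1.72, 1.39 and 1.37 in rescue sparse and 1.47, 1.62 and 1.33 in KO sparse cultures on the 3 days. These overlapped, with KO minus rescue at -0.02 ± 0.19. In dense cultures it read 3.53, 3.74 and 3.14 in rescue and 0.97, 0.66 and 0.70 in KO cells. Here the groups lay apart, with Fabp3 6.48-fold lower in KO (-2.70 ± 0.19). From highest to lowest the order was rescue dense, then both sparse groups together, then KO dense.

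Fabp4, the binding protein of fat cells and macrophages, was dim. Its brightest probe read -4.20, -3.83 and -3.77 in rescue sparse and -3.29, -3.22 and -4.24 in rescue dense cultures. KO cultures read -5.27, -3.20 and -5.56 in sparse and -5.14, -5.66 and -5.17 in dense cultures, and only 1 array in each KO group was well above background. The KO sparse culture of day 2 stood with the rescue arrays, above the other KO cultures. KO minus rescue was -0.74 ± 0.51 in sparse cells, and -1.48 without that culture, and -1.74 ± 0.51 in dense cells. A second probe gave wider gaps, -2.48 ± 0.56 in sparse cells and at least 4.95-fold lower in dense KO cells, where it was not well above background. The first probe's dense difference was -0.02 with normexp background correction, and it no longer passed with the slide as a block (-1.40). Macrophage markers were few: 3 of that list were bright enough to test, and 2 of these were lower in KO cells at each density. Their part in the Fabp4 values was not tested.

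Plin2, which coats small lipid droplets in most cell types, was bright throughout. It read 5.75, 5.93 and 5.59 in rescue sparse and 6.26, 7.12 and 6.17 in rescue dense cultures. The KO cultures were at 4.10, 3.74 and 3.90 in sparse and 4.01, 3.47 and 3.28 in dense cultures. All KO arrays lay below all rescue arrays. Plin2 was 3.59-fold lower in KO in sparse cells (-1.84 ± 0.27) and 7.63-fold lower in dense cells (-2.93 ± 0.27). Within the day 2 slide the differences were -2.20 and -3.65. The order was rescue dense, rescue sparse, then the 2 KO groups, whose values overlapped.

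Pparg was the member most reduced in KO cells. It read 2.10, 2.19 and 1.73 in rescue sparse and 1.45, 1.098 and 1.33 in rescue dense cultures. KO cultures gave -2.99, -3.22 and -3.71 in sparse and -2.63, -3.75 and -3.48 in dense cultures. Every KO array was below every rescue array, by 39.8-fold on average in sparse cells (-5.31 ± 0.29) and 23.9-fold in dense cells (-4.58 ± 0.29). With normexp the differences were -3.70 and -3.14. Dense rescue cultures lay below sparse rescue cultures on all 3 days, by -0.71 ± 0.29 (0.01 with spike-in scaling). That difference missed the threshold in the fit without blocks and passed it with the day as a block (same value, SE 0.24), with the slide as a block, with median scaling and with a strict filter that keeps probes well above background on all 12 arrays. The 2 KO groups overlapped.

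The mouse Pparg gene has 3 transcription starts in the RefSeq promoter table, which lead to transcripts with different first exons, and the single Pparg probe (RefSeq transcript NM_011146) does not say which start was used. The bases before each start are printed because they differ in make-up for the member with the largest reduction in KO cells. Each run is 250 bases on the plus strand of chromosome 6, assembly GRCm38.p6, at chr6:115360894-115361143, chr6:115362099-115362348 and chr6:115421816-115422065, written 5′ to 3′ and ending at the base before the start. Capitals mark matches to 2 of the 4 motifs searched.
Pparg start 1: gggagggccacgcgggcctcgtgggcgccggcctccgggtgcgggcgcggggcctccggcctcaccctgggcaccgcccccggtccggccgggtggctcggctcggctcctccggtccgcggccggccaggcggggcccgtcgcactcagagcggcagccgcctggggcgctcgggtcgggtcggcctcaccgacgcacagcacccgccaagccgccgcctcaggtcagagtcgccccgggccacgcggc
Pparg start 2: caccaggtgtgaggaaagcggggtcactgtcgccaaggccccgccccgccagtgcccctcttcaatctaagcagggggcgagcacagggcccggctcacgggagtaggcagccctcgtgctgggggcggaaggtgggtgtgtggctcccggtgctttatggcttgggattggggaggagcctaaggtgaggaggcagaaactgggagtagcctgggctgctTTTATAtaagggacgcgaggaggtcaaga
Pparg start 3: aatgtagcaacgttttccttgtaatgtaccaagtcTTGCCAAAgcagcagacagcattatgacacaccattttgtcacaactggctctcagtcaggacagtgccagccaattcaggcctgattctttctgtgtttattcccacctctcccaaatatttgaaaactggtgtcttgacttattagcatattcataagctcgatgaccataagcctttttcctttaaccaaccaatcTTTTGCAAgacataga
Start 1 lies in sequence of 82.4% G and C and start 3 in sequence of 40.8%, with start 2 between them at 63.6%. The direct repeat known for PPAR and RXR was searched as AGGTCANAGGTCA on both strands. The C/EBP type motif was searched as TTGCNNAA in the same way. The other motifs were the TATA box, TATAAA, and the E-box, written CACGTG, and both strands were read for them too. Start 3 holds TTGCNNAA at 215 bases before the start on the plus strand and at 16 bases before it on the minus strand. Start 2 holds TATAAA on the minus strand at 29 bases before the start, and start 1 holds none of the 4. Of all 32851 promoters in the table, 9.56% hold the C/EBP type motif in these 250 bases, 12.4% the TATA box, 6.02% the E-box and 0.0335% the direct repeat. A match is a stretch of letters and not a measured binding site. Promoters of 5 members were in the table; those of Cd36, Fabp3 and Plin2 held none of the 4 motifs in these letters, and that of Cebpa held TATAAA at 30 bases before its start.

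Cebpa, which with Pparg maintains the fat cell state, was too dim to test. Its brighter probe was well above background on 6 of 12 arrays, with no group complete. It read from -6.66 to -4.92 in rescue and from -6.20 to -3.71 in KO arrays, which overlapped. Its other probe stayed near background on all 12 arrays.

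Cebpd, an early factor in fat cell formation that also responds to cytokines and glucocorticoids, read 3.47, 3.36 and 2.40 in rescue sparse and 4.34, 5.00 and 3.73 in rescue dense cultures. The KO cultures were at 2.13, 2.70 and 1.72 in sparse and 3.12, 2.82 and 2.14 in dense cultures. In each group the day 3 culture had the lowest level. KO minus rescue was -0.89 ± 0.40 in sparse cells, where the groups overlapped, and -1.66 ± 0.40 in dense cells, where they did not. Within a day the sparse difference ran from -1.34 to -0.66, and it passed the threshold with the day as a block (same value, SE 0.21), with the slide as a block (-1.04) and with median scaling (-1.20).

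Angptl4, a secreted inhibitor of lipoprotein lipase that is induced by fasting, fatty acids and hypoxia, read -0.22, 0.04 and -0.75 in rescue sparse and -0.24, -0.68 and -1.20 in rescue dense cultures. In KO cells it read -0.86, -0.39 and -0.62 in sparse and -1.94, -2.02 and -1.70 in dense cultures. Only KO dense stood apart, below all other arrays. KO minus rescue was -0.32 ± 0.27 in sparse and -1.18 ± 0.27 in dense cells, and -0.40 in dense cells with normexp background correction. With spike-in scaling the dense line differences of Angptl4 (-0.38), Cebpd (-0.86) and Fabp4 (-0.94) no longer passed.

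**Figure D2:**
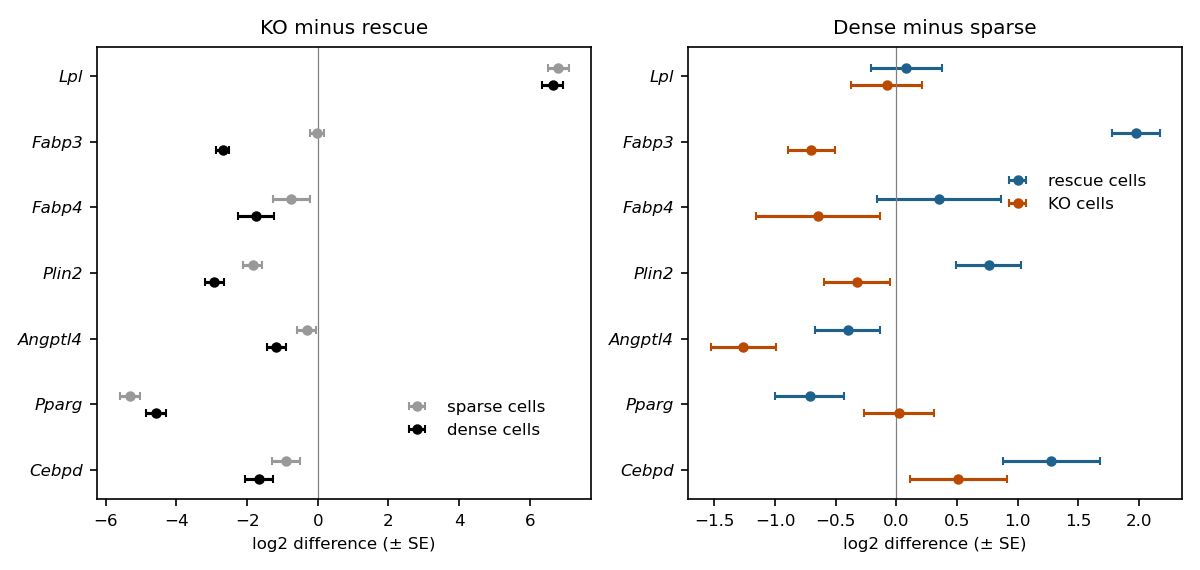
Log2 differences of the 7 members fitted (mean ± SE of the limma fit, n = 3 arrays per group), KO minus rescue on the left and dense minus sparse on the right, each for both densities or both lines. Lpl is the only member above 0 in both line comparisons; the 5 negative KO points on the right lie above 0 when arrays are scaled to the spiked-in RNA.

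Between densities, the members that passed were higher in dense rescue cells and lower in dense KO cells, and the KO directions turned with spike-in scaling. In rescue cells 3 of 7 members (Fabp3, Cebpd and Plin2) passed as higher in dense cultures and none as lower, where 40% of all genes passed (19% higher and 21% lower). The densities did not overlap for 4 members, against 50.6% of all genes. In KO cells none passed as higher and 2 (Fabp3 and Angptl4) as lower, where 10.9% of all genes passed (5.43% higher and 5.48% lower). The densities did not overlap for 2 members, against 38.2% of all genes. The median difference of the members was 0.35 in rescue and -0.33 in KO cells, beside -0.08 and 0.00 over all genes.

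Fabp3 was 3.93-fold higher in dense than in sparse rescue cells (1.98 ± 0.19), and the daily differences ran from 1.77 to 2.35. In KO cells it was lower in dense cultures by -0.70 ± 0.19, on each of the 3 days, a difference that passed in the full fit and missed the threshold when any of 8 cultures was left out (-0.80 to -0.63), all 6 KO cultures among them, with rescue sparse of day 2 and rescue dense of day 1. The 2 density responses differed by -2.68 ± 0.28. This was the one member of 7 past the threshold of the interaction, where 20.7% of all genes passed (11.3% higher and 9.46% lower). With spike-in scaling, which turns the KO density difference to 2.37, the interaction was -0.33.

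Cebpd was higher in dense than in sparse cultures on all 3 days in both lines, by 1.28 ± 0.40 in rescue and 0.51 ± 0.40 in KO cells. Plin2 was higher in dense rescue cultures by 0.76 ± 0.27 and differed by -0.33 ± 0.27 in KO cells, in opposite directions on every day. The difference between these Plin2 responses, -1.09 ± 0.38, did not pass. It passed with quantile scaling (-1.29), with the strict filter and with the slide as a block (both -1.09), and was 1.26 with spike-in scaling. Leaving out 1 culture ended the density call of Cebpd for rescue sparse of day 3 (0.94), rescue dense of day 1 (1.28) and rescue dense of day 2 (0.95), and normexp ended that of Plin2 (0.54). The Plin2 call was also lost without any of 6 cultures, the 3 rescue sparse cultures (0.68 to 0.85), rescue dense of day 2 (0.46), KO sparse of day 3 or KO dense of day 2 (0.76 each).

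Angptl4 was lower in dense than in sparse KO cultures by -1.26 ± 0.27, with daily differences from -1.63 to -1.07. In rescue cells the difference was -0.40 ± 0.27 with overlapping groups. The KO difference turned to 1.81 with spike-in scaling and was -0.70 with normexp, and it missed the threshold without KO dense of day 2 (-1.19). Fabp4 differed by 0.35 ± 0.51 in rescue and -0.65 ± 0.51 in KO cells, and both pairs of groups overlapped.

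**Figure D3:**
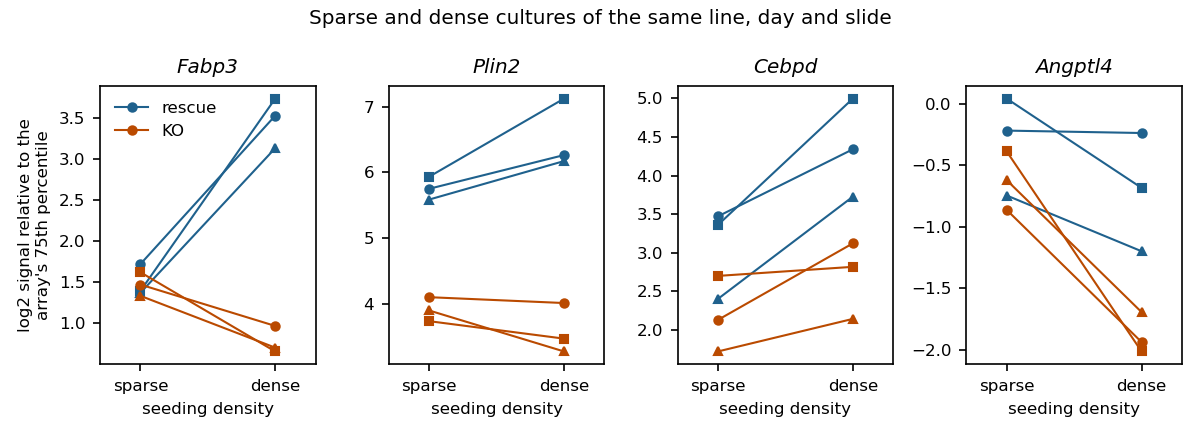
Log2 signal relative to the 75th percentile of the array for Fabp3, Plin2, Cebpd and Angptl4 in sparse and dense cultures; each line joins the cultures of 1 line and day (circle day 1, square day 2, triangle day 3), which shared a slide. Fabp3 and Plin2 are higher in the dense culture of all 3 rescue pairs and lower in that of all 3 KO pairs on this scale, and with spike-in scaling the KO means of Fabp3, Plin2 and Angptl4 are higher in dense cultures.

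Other genes followed the members' patterns over the 12 arrays. Likeness was the root-mean-square distance between gene-centred log2 values, taken over all genes fitted. The gene closest to Lpl was Emc9 (distance 0.29, against a spread of Lpl itself of 3.53). Snurf was closest to Pparg (0.33 against 2.62) and Immp2l to Plin2 (0.24 against 1.32). Emc9 averaged -6.54 in rescue sparse and -6.16 in rescue dense cells, and Snurf -7.02 in KO sparse and -7.25 in KO dense cells. These are low readings, and whether they were well above background was not checked here. Among the 3 closest to Fabp3 were Gnpda1 (0.24 against 1.07) and Kdm5b (0.24). Marcks was closest to Cebpd (0.24 against 0.96) and Fnbp1 to Angptl4 (0.28 against 0.69). Among the 3 closest to Fabp4 was Me3 (0.42 against 0.94).

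The wider pathway was read from 6 lists of 138 genes that are no members. Of these, 133 were on the array and 100 were tested. The lists were chosen with earlier results of these data known, so their counts and p-values are no independent test. In sparse cells 19 of the 100 were higher and 42 lower in KO, against 23.2% and 25.6% of all genes. In dense cells 21 were higher and 42 lower, against 31.9% and 29.7% of all genes. With spike-in scaling the split was 7 higher and 77 lower in sparse cells, where 581 of all 12438 genes were higher and 8871 lower. In dense cells it was 30 higher and 20 lower with that scaling, where 5342 of all genes were higher and 1500 lower. The median difference of the 100 genes was -0.35 in sparse and -0.31 in dense cells. "At least" folds below are set on this scale and are bounds on it only. Normexp adds an offset to every signal. It and the deposited value table of days 1 and 2 gave smaller differences for many of the dim genes below. Not all of these log2 values are printed, and those printed beside an "at least" fold fall short of it.

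Over all genes, 48.8% passed in sparse and 61.6% in dense cells. Fatty acid transport and activation, with 53.3% and 46.7% of its genes called, had 3 of 15 tested genes higher and 5 lower in sparse KO cells, and 2 higher and 5 lower in dense KO cells. Slc27a6, a member of the fatty acid transport protein family, was at least 18.5-fold higher in sparse KO cells and at least 13.8-fold higher in dense KO cells, with no rescue array well above background, so the fit rests there on readings at background. Its differences were 1.72 and 1.16 with normexp and 2.79 and 2.28 in the value table of days 1 and 2, below those bounds. Acsbg1, an acyl-CoA synthetase of the bubblegum family, ran the other way, 58.8-fold lower in sparse KO cells (-5.88 ± 0.42, limma adjusted p = 2.75e-07) and at least 382-fold lower in dense KO cells. With normexp these differences were -4.30 and -5.56, and in the value table of days 1 and 2 they were -5.25 and -6.96. Both of these dense values fall short of the dense bound. On the day 2 slide, which held both lines and is 1 of the 3 days in the fit, the differences were -6.71 and -8.79. Slc27a1, the transporter FATP1, was lower in sparse KO cells (-2.64 ± 0.22). Pmp2, a binding protein whose gene lies next to Fabp5, was well above background in rescue dense cells only and there at least 5.92-fold higher than in KO dense cells (KO minus rescue -1.94 in the value table of days 1 and 2).

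Of the lipoprotein lipase axis, 1 of 11 tested genes was higher and 7 lower in sparse KO cells, and 2 higher and 5 lower in dense KO cells. Angptl8, which acts with other angiopoietin-like proteins to inhibit the lipase, was 27.7-fold higher in sparse (4.79 ± 0.29) and 21.3-fold higher in dense KO cells (4.42 ± 0.29). A second Angptl8 probe gave 3.68 and 4.77, and normexp 2.37 and 2.34. The value table of days 1 and 2 gave 3.14 and 2.89. The lipoprotein receptors Lrp1 and Vldlr were lower in KO. Lrp1 differed by -2.47 ± 0.38 in sparse and -3.09 ± 0.38 in dense cells, and Vldlr by -2.41 ± 0.36 and -2.79 ± 0.36.

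Among genes of triglyceride synthesis, droplets and lipolysis, 1 of 19 was higher and 8 lower in sparse KO cells, and 2 higher and 8 lower in dense KO cells. Mgll, the lipase that splits monoglycerides, was at least 70.8-fold higher in sparse KO cells and higher by 7.11 ± 0.37 in dense ones, where 1 of 3 rescue arrays was well above background. Its differences were 3.37 and 3.93 with normexp and 4.49 and 4.99 in the value table of days 1 and 2. Both of these sparse values fall short of that bound. The droplet coat gene Plin4 was lower, at least 73.6-fold in sparse KO cells and by -8.81 ± 0.27 in dense ones. Its differences were -3.16 and -5.82 with normexp and -5.29 and -7.63 in the value table of days 1 and 2. Both of these sparse values fall short of that bound. Agpat2, an acyltransferase of triglyceride synthesis, was 18.9-fold and 16.3-fold lower (-4.24 ± 0.22 and -4.03 ± 0.22), and by -2.52 and -2.60 with normexp.

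Regulators of adipogenesis split nearly evenly, with 9 of 32 higher and 12 lower in sparse KO cells and 10 higher and 11 lower in dense KO cells. Stat5b and Ebf1, factors that promote fat cell formation, were lower in sparse KO cells, Stat5b at least 78.3-fold by its brightest probe and Ebf1 at least 62.3-fold. A second Stat5b probe gave a smaller difference of -4.14, and normexp gave -3.63 for Stat5b and -3.19 for Ebf1. In the value table of days 1 and 2 Ebf1 differed by -5.31. Ppargc1a, a PPAR coactivator that drives mitochondrial genes, was lower by -9.98 ± 0.45 in dense KO cells (-5.72 with normexp), where 1 of 3 arrays was well above background. Wnt6, a Wnt ligand that restrains adipogenesis, was higher in KO cells, at least 13.2-fold when sparse and at least 13.1-fold when dense, and by 2.13 and 1.70 in the value table of days 1 and 2, below those bounds. Gata2, a factor that holds preadipocytes back, was higher in dense KO cells (2.23 ± 0.20, and 1.48 by a second probe). Nr1h3, the sterol receptor LXR alpha, was higher in sparse KO cells (2.45 ± 0.32), a call lost with spike-in scaling (0.90). The probes of Klf15 were called in opposite directions in dense cells.

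PPAR-regulated genes of fatty acid oxidation had 4 of 21 higher and 10 lower in sparse KO cells, and 4 higher and 13 lower in dense KO cells. Acot1, a cytosolic acyl-CoA thioesterase, was at least 301-fold higher in sparse KO cells and higher by 6.95 ± 0.47 in dense ones. Its differences were 4.97 and 5.21 with normexp and 6.75 and 6.34 in the value table of days 1 and 2. Both of these sparse values fall short of that bound. Acot1 and Acot2 are near-identical neighbours in sequence, and without probe sequences signal of one on the probe of the other cannot be told apart. Vnn1, a pantetheinase, was at least 18-fold lower in sparse KO cells and differed by -3.19 ± 0.20 in dense ones. With normexp its differences were -1.65 and -1.44, and the sparse one falls short of that bound. The hormone gene Fgf21 was higher in dense KO cells (4.77 ± 0.38, and 2.27 with normexp). In the value table of days 1 and 2 its difference was 3.14. The mitochondrial carrier gene Ucp2 was at least 4.47-fold higher in sparse KO cells.

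Of 10 mature adipocyte genes on the array only 2 were bright enough to test. Slc2a4, the insulin-responsive glucose transporter, was at least 2.77-fold higher in sparse and at least 5.82-fold higher in dense KO cells, and by 0.76 and 1.22 in the value table of days 1 and 2. Adipoq, Lep, Retn, Cfd, Ucp1, Aqp7, Adig and Tshr were not tested for lack of signal. With normexp background correction, chosen in this form after the data were seen, the calls of Slc27a6 (1.16), Wnt6 (1.22), Pmp2 (-0.49) and Slc2a4 (0.85) in dense cells and of Slc2a4 (0.93) and Ucp2 (1.08) in sparse cells no longer passed. With spike-in scaling the sparse call of Slc2a4 was lost (1.02).

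**Figure D4:**
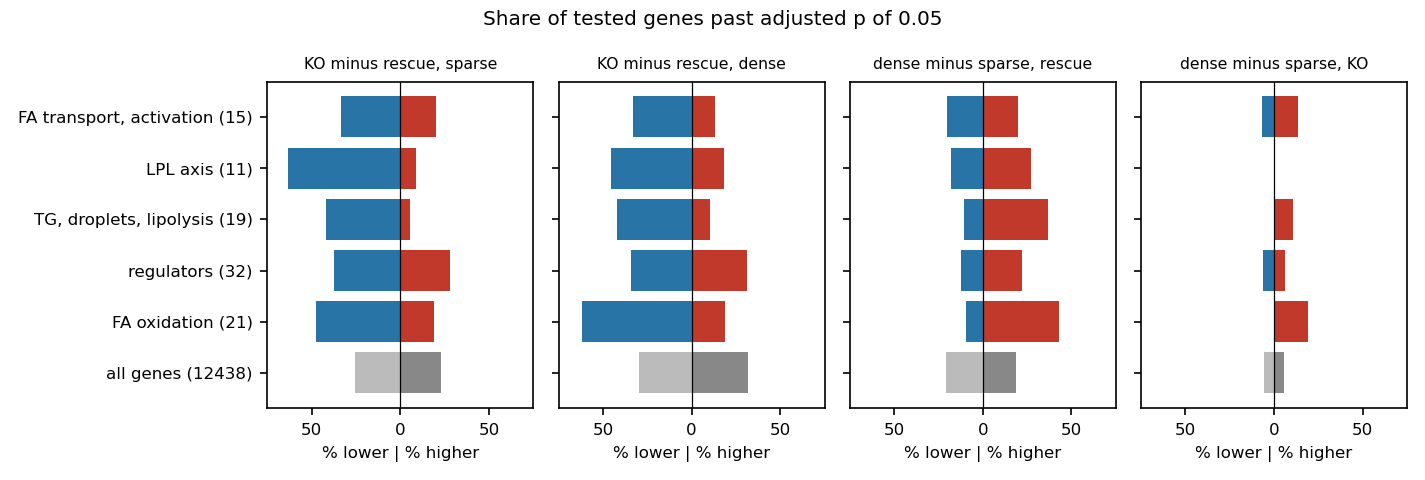
Percent of tested genes past an adjusted p of 0.05 (limma, Benjamini-Hochberg over 12438 genes), lower to the left and higher to the right, for 5 pathway lists (number tested in brackets) and, in grey, for all genes. Fatty acid oxidation genes were lower in dense KO cells for 61.9% of 21 genes against 29.7% of all genes. Under spike-in scaling 99 of the 100 listed genes were higher in dense than in sparse KO cells, as were 12376 of all 12438 genes. The lists were chosen with earlier results of these data known, so the shares are a description.

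Between densities, 29 of the 100 pathway genes were higher and 14 lower in dense rescue cells, against 19% and 21% of all genes. With spike-in scaling the split was 35 higher and 0 lower, where 3091 of all 12438 genes were higher and 321 lower. With normexp it was 14 higher and 4 lower, against 1035 and 1286 of all genes. In KO cells 10 were higher and 3 lower, against 5.43% and 5.48%. This KO count moved with the setting, to 20 with the day as a block and to 0 with normexp (limma, 13 at an unadjusted p under 0.05), so each KO density call named below was lost with normexp. Fatty acid oxidation had 9 of 21 genes higher and 2 lower in dense rescue cells, and 4 higher and none lower in dense KO cells. Cpt1a, which admits fatty acids to mitochondria, rose with density in both lines, by 1.58 ± 0.19 in rescue and 1.27 ± 0.19 in KO cells. Lpin1, a phosphatidate phosphatase of triglyceride synthesis, rose likewise, by 2.38 ± 0.28 and 1.66 ± 0.28. Acsl3, an acyl-CoA synthetase of lipid droplets, rose in rescue cells (1.60 ± 0.26). In KO cells Acot2 rose by 1.93 ± 0.25, and Acsbg1 was at least 4.92-fold lower in dense cultures, a direction that spike-in scaling turned (0.20).

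The density responses of the 2 lines differed past the threshold for 20 of the 100 genes, against 20.7% of all genes. Plin4 rose with density in rescue cells (2.31 ± 0.27), as did Ppargc1a (3.11 ± 0.45) and Egr2, an early factor of adipogenesis (2.66 ± 0.31). Acot1 was at least 3.78-fold and Pmp2 at least 4.98-fold higher in dense than in sparse rescue cells, calls that normexp ended (0.46 and 0.59) while Acot1 differed by 1.51 in the value table of days 1 and 2. Bmp4, a growth factor that commits cells to the fat lineage, fell in dense rescue cells (-1.41 ± 0.19) and rose in dense KO cells (1.17 ± 0.19). Scarb1, a scavenger receptor for lipoproteins related to CD36, also fell in rescue (-0.82 ± 0.17) and rose in KO cells (1.03 ± 0.17), and Gata2 fell in rescue cells (-1.22 ± 0.20; a second probe gave -0.69). Spike-in scaling ended the rescue falls of Bmp4 (-0.69), Scarb1 (-0.10) and Gata2 (-0.50), and normexp that of Scarb1 (-0.72).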

How the data were processed

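Total RNA of 12 cultures (100 ng each, per the labels' protocols) was labelled with Cy3 by the authors and hybridised to 1 array each. The deposited scanner files hold intensity on a linear scale from Agilent Feature Extraction 10.5.1.1, per the file headers. The deposited value table holds log2 values, and how it was normalised is not given in the sources used here. Flagged spots (79 to 265 per array) were set to missing, no spot was saturated, and log2 processed signals were averaged per probe and scaled to the 75th percentile of the array. A probe was kept when some group had it well above background on each of its 3 arrays, and the brightest stood for its gene. Symbols and promoters came from RefSeq tables of GRCm38.p6. Members and lists were chosen with earlier results of these data known. Among list genes, the 2 largest rises and 2 largest falls past the threshold, per list and comparison, could be named, and the 3 nearest genes of each member; a few genes that met these rules are not reported here. The fit used limma 3.58.1 with R 4.3.3 (8 residual and 3.58 prior degrees of freedom) on all 12 arrays. Where a group was not well above background, "at least" folds compare the brighter group with the higher of the probe's own signal and the lowest signal well above background on each array. The fit was tested on simulated data. The labels make the replicate number a shared day. The deviations of same-day arrays from their group means correlated above 0.1 in 11 of 18 pairs (-0.037 to 0.296). Densities of a line and day shared a slide, the lines only on day 2, so on the other days slide and line cannot be told apart. Alternatives were other scalings, background corrections, filters and blocks, the value table and leaving out each array. RNA was prepared on 1 day for all samples, per the labels.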

Additional observations from a re-analysis of the deposited data

Results flagged for a closer look

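Several genes responded to density differently in the 2 lines, by the interaction term of the limma fit (the KO density difference less that of rescue, with Benjamini-Hochberg adjusted p over all genes tested). Among the members this was Fabp3 (-2.68 ± 0.28), a description since members were chosen with these values known. Its response was up in 3 of 3 rescue pairs and down in 3 of 3 KO pairs. With spike-in scaling the Fabp3 interaction was -0.33 and did not pass. Of the pathway genes, the KO density difference lay below that of rescue for Acsbg1 (-3.27, adjusted p = 0.00318) and Pmp2 (-3.21, 0.00971). It also lay below for Plin4 (-2.53, 0.00117), Ppargc1a (-2.84, 0.00899), Acot1 (-2.69, 0.0154), Egr2 (-3.43, 0.000431) and Plin3 (-1.74, 0.0325). It lay above that of rescue for Fgf21 (2.49, 0.00718), Gata2 (1.58, 0.00244), Bmp4 (2.57, 0.000162), Scarb1 (1.86, 0.000422) and Acot2 (1.83, 0.00449). The sign does not name the line that changed more. Gata2 differed by -1.22 in rescue and 0.36 in KO cells, Fgf21 by -1.53 and 0.97, and Acsbg1 by -2.87 in KO cells. The lists were chosen with earlier results known, so these p-values are no independent test. Acsbg1 in KO dense, Plin4 and Ppargc1a in KO sparse, Acot1 in rescue sparse and Pmp2 in every group but rescue dense were not well above background on any array, so the sizes and p-values of these interactions rest partly on background readings. The Plin3 call was lost without rescue sparse of day 3, rescue dense of day 1 or 2, KO sparse of day 1 or 3, or KO dense of day 1 (-1.76 to -1.37). Bmp4 and Scarb1 passed both with spike-in scaling and with normexp background correction. Spike-in scaling ended the calls of Acot1, Acsbg1, Egr2, Plin4, Pmp2 and Ppargc1a and turned the sign of Plin3. Normexp ended those of Acot1 (0.24), Acot2, Acsbg1, Egr2, Fgf21, Gata2, Plin3, Plin4 and Pmp2.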

How the results depend on the processing

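The line differences of Lpl, Pparg and Plin2 kept their direction under every alternative run. Fabp3 kept the direction of its dense line difference and of its interaction. That interaction was -0.33 with spike-in scaling and -1 in the value table as labelled, and passed in neither. The dense line difference of Fabp3 was -0.92 in the value table as labelled and did not pass. The value table as labelled, whose day 3 columns match the other line, gave 0 genes called between the lines at either density (limma, 118 and 67 at an unadjusted p under 0.05), 0 for density in rescue (939), 1 in KO and 0 for the interaction (41); 0 pathway genes (1, 0, 7, 9 and 0) and 0 members (0, 0, 0, 1 and 0) passed, and Fabp3 density in KO turned to 0.15 and the Acot1 interaction to 0.022. Without its day 3, added after seeing the data, 721 genes were called for density in KO and 1346 for the interaction, with 9 pathway genes for the interaction and 0 members for density in KO (2 unadjusted). Spike-in scaling called 9452 genes in the sparse line comparison, 12378 for density in KO and 10759 for the interaction. Of the pathway genes it called 99 and 86 in the last 2, and of the members 7 (sparse line), 4 (dense line), 7 (density in KO) and 4 (interaction). It turned density in KO for Acsbg1 (0.20), Angptl4 (1.81), Fabp3 (2.37), Fabp4 (2.42), Lpl (2.99) and Plin2 (2.74), and the interaction for Plin3 (0.61), Angptl4 (1.49), Cebpd (1.58) and Lpl (2.19). Normexp, run on median spot signals, called 3355, 5028, 2321, 48 and 567 genes in the 5 comparisons, 18, 0 and 3 pathway genes in the last 3 and 0 members for density in KO (1 unadjusted), and turned the Acot1 interaction (0.24). Pathway genes called for density in KO numbered 20 with quantile scaling, 21 with median scaling, 23 with the mean of all probes and 20 with the day as a replicate block. Members past the threshold for density in KO numbered 1 with median scaling, no filter or the slide block, and for the interaction 2 (Fabp3 and Plin2) with quantile scaling, the strict filter or the slide block. Leaving out 1 array gave 514 to 1599 genes and 7 to 16 pathway genes for density in KO, with 7 without KO sparse of day 1 or KO dense of day 2. Members past the threshold then numbered 3 to 5 (sparse line), 1 to 4 (density in rescue), 0 to 2 (density in KO) and 1 to 2 (interaction). The day as a block, the slide as a block and median scaling each brought Cebpd (sparse line) and Pparg (density in rescue) past the threshold; the day block changed no other call of a gene named here. The cause of these shifts was not tested. Dim probes (Cd36, Cebpa, Fabp4) limit what can be said of those genes.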
